A study of Homo sapiens with 48 samples.

Results

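The RELA binding sites that L3.6pl cells gained within 30 min of TNFα were compared with those gained within 30 min of TWEAK. L3.6pl is an established human pancreatic ductal adenocarcinoma cell line, and RELA was mapped by ChIP-seq after TNFα, after TWEAK and after a PBS vehicle whose duration the labels do not give. A site was a RELA region of either 30 min list on chromosomes 1 to 22 and X, and regions of the lists that shared at least 1 bp counted as 1 site. Sites that touched a region of the RELA or the RELB vehicle list were left out, which removed 3048 of 11735 sites and left 8687. Across all 16 lists of the series there were 392221 peaks on these chromosomes. Of the 8687 sites, 8125 were called after TNFα only, 376 after both ligands and 186 after TWEAK only. The series also holds RELA at 6 h and RELB at 30 min and 6 h of each ligand, the acetylated histone mark H3K27ac after vehicle and both ligands, and FOSL1, a subunit of AP-1, after vehicle only, each from the same cell line, so the results describe 1 cell line. Each condition had 3 replicates that were deposited as 1 peak list. No value therefore carries an error between replicates, no test across replicates was possible, and the exact 95% intervals given in parentheses cover counting error over sites alone. The names of the peaks in the list for TNFα carry a single replicate number, so whether that list holds all 3 replicates is unknown, and the read depth behind each list is unknown too. Depth and the number of merged replicates cannot be told apart from the ligand in any comparison of the length or the folds of these lists. The epithelial identity of the cells was visible in the acetylation list of vehicle, in which the start sites of all 6 epithelial markers tested (KRT8, KRT18, KRT19, KRT7, EPCAM and CDH1) lay within 1000 bp of a peak. The same was true of 1 of 5 immune markers (CD68) and of 3 of 6 stromal and endothelial markers (COL1A1, PECAM1 and VWF).

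RELA is an activating subunit of the canonical NF-κB dimers. In resting cells it is held in the cytoplasm by IκB proteins. TNFα, acting through TNFR1, activates the IKK complex within minutes, IκBα is degraded, and RELA enters the nucleus and binds κB motifs. TWEAK acts through its receptor Fn14 (TNFRSF12A) and is known mainly for the slower noncanonical route, in which p100 is processed and RELB enters the nucleus, although Fn14 can engage the canonical route as well. H3K27ac marks active promoters and enhancers, and AP-1 factors such as FOSL1 occupy many enhancers of epithelial cancer cells.

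Almost every TWEAK site outside tandem repeats was also a TNFα site, whereas few TNFα sites were also TWEAK sites. A site counted as a tandem repeat where the 1000 bp at its summit matched itself over a share of at least 0.4 of bases at some shift from 1 to 400 bp. Outside such repeats 7542 sites were called after TNFα only, 335 after both ligands and 20 after TWEAK only. Of the TWEAK sites there, 335 of 355 or 94.4% (91.4 to 96.5) were also called after TNFα. Over all sequence the share was 66.9% (62.8 to 70.8), and in tandem repeats it was 19.8% (14.6 to 25.9). Of the TWEAK only sites, 166 of 186 or 89.2% lay in tandem repeats, against 7.18% of the TNFα only sites and 10.9% of the sites of both ligands. Of the sites left out because of vehicle, 85.5% lay in tandem repeats as well. In the other direction, 4.42% of all TNFα sites (3.996 to 4.88) and 4.25% of those outside tandem repeats (3.82 to 4.72) were also called after TWEAK. Results below are given for sites outside tandem repeats unless stated otherwise. Other kinds of repeat, such as duplicated segments, were not screened for, so these sites need not lie in unique sequence.

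The sequence under the summit is shown for the strongest sites of each group, ranked by fold enrichment over input, because the κB motif was the motif in which the groups differed most. Each window is the 101 bp centred on the summit, on the plus strand of hg38. Matches on either strand to the κB motif GGGRNWYYCC or to the AP-1 word TGACTCA are in capitals. In the motif R is A or G, W is A or T, Y is C or T and N is any base. Windows that touch an annotated UTR were passed over. The strongest sites called after both ligands were an intergenic site nearest FGF9 (chr13:22040847-22040947), an intronic site of MACROD2 (chr20:14845640-14845740), the CXCL8 promoter (chr4:73740416-73740516) and an intergenic site nearest NDUFV2 (chr18:9073813-9073913).
FGF9, both: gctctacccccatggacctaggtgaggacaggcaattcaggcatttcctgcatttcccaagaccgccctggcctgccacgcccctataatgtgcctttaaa
MACROD2, both: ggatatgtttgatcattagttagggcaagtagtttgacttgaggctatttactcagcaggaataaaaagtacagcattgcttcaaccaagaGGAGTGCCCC
CXCL8, both: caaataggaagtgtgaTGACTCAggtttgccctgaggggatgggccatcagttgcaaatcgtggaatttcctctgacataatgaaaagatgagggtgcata
NDUFV2, both: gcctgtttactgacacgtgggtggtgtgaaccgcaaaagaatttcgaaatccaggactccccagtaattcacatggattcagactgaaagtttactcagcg

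The strongest TNFα only sites shown were nearest MOBP (chr3:39447926-39448026), at the promoter of SLC9A8 (chr20:49812594-49812694), nearest SPINK6 (chr5:148186386-148186486) and in an intron of HPSE2 (chr10:98647365-98647465).
MOBP, TNFα only: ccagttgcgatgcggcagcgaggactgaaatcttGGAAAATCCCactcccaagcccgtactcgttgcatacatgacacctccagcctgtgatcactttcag
SLC9A8, TNFα only: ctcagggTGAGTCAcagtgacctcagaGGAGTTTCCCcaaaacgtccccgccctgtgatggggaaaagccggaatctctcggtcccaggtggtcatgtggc
SPINK6, TNFα only: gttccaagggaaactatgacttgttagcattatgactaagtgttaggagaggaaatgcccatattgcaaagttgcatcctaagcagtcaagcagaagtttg
HPSE2, TNFα only: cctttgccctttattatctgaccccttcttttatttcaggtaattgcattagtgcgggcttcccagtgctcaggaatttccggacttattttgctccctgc

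The strongest TWEAK only sites outside tandem repeats were intergenic, nearest DEFB115 (chr20:30516749-30516849) and ANKRD30BL (chr2:132268147-132268247), and held no match.
DEFB115, TWEAK only: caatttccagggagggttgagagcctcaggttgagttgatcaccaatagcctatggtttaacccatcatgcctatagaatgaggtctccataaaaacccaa
ANKRD30BL, TWEAK only: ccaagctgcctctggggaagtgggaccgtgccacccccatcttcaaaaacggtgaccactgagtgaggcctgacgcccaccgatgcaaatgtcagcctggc

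The sites called after both ligands were the strong end of the TNFα list. Their TNFα fold enrichment ranged from 6.10 to 31.3 with a median of 14.0, and that of the TNFα only sites ranged from 1.79 to 23.6 with a median of 6.04. The ranges overlapped, and 193 TNFα only sites (2.56%) lay above the median of the sites of both ligands. When TNFα sites were divided into deciles of fold, none of those in the 5 lower deciles was called after TWEAK. The share was then 0.244% in decile 6, 0.720% in decile 7, 1.92% in decile 8, 4.90% in decile 9 and 32.2% (29.0 to 35.5) in decile 10, which began at a fold of 11.4. In decile 10, 270 of 839 sites were therefore called after both ligands and 569 after TNFα only. The region called after TNFα was longer at the sites of both ligands, with a median of 350 bp against 194 bp.

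**Figure D1:**
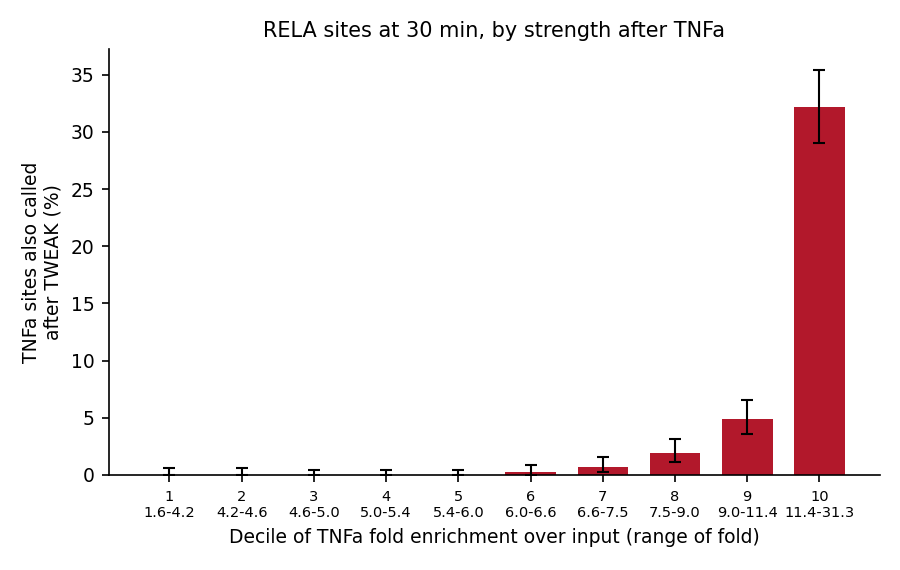
Share of TNFα sites outside tandem repeats that were also called after TWEAK (y axis, percent) by decile of TNFα fold enrichment over input (x axis, with the range of fold). Bars show the share and lines its exact 95% interval. The share stays under 5% up to decile 9 and reaches 32.2% in decile 10.

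Where both ligands gave a call, RELA sat at the same position and its deposited fold over input was lower after TWEAK. Over all 376 sites the summits of the lists were a median of 18 bp apart, and 340 (90.4%) lay within 50 bp of each other. The TNFα fold was higher than the TWEAK fold at 334 of 335 sites outside tandem repeats, with a median ratio of 2.09. Depth and the number of merged replicates cannot be told apart from the ligand in this ratio. The TWEAK fold there ranged from 3.88 to 13.3 with a median of 6.59. Across these sites the TNFα and TWEAK fold had a Spearman rho of 0.46, given as a description since both are relative to input chromatin and every site is in both lists. By q the weakest call after TWEAK lay 21510 bp from the start of TEX44, with a TWEAK fold of 3.88 and a −log10 q of 1.61 beside a TNFα fold of 13.4. The lowest TNFα fold among them was 6.10, at a site 36956 bp from ANO1 whose TWEAK fold, 3.88, was also the lowest. A TNFα fold of 8.11 divided by the median ratio gives that lowest TWEAK fold of 3.88, and 76.3% of the TNFα only sites (75.3 to 77.2) lay under it, against 3.58% of the sites of both ligands. The TWEAK list outside tandem repeats reached down to a fold of 2.93 at a TWEAK only site, and with that fold in its place the value was 6.12, under which 51.4% (50.2 to 52.5) of the TNFα only sites and 1 site of both ligands lay. Both values rest on a median ratio set mostly by decile 10, where it was 2.18 at 270 sites. In deciles 6 to 9, with fewer sites, the median ratio was between 1.31 and 1.76. A lower ratio would give lower values and smaller shares, so the shares are not fixed limits. For sites under such values the lists cannot separate absent RELA after TWEAK from RELA under the limit of the call. Of the 41 sites of both ligands in tandem repeats, the TNFα fold was the higher at 11, with a median ratio of 0.87.

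**Figure D2:**
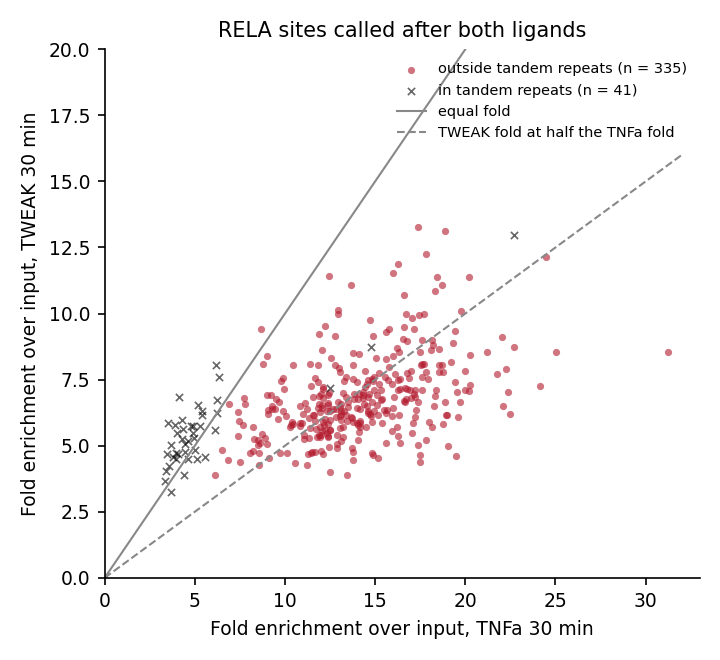
Fold enrichment over input after TNFα (x axis) and after TWEAK (y axis) at each of the 376 sites called after both ligands. Red points lie outside and crosses inside tandem repeats, the solid line marks equal fold and the dashed line a TWEAK fold of 0.5 times the TNFα fold. All red points but 1 lie under the solid line.

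Among the 10 strongest sites of both ligands, CXCL8, the neutrophil chemokine interleukin 8, was the site nearest a start, 75 bp upstream, with a fold of 24.5 after TNFα and 12.1 after TWEAK. The site nearest FGF9, 369824 bp away, had 31.3 and 8.54, and the intronic MACROD2 site had 25.01 and 8.54. The promoter site of CYBA, which encodes the p22phox subunit of NADPH oxidases, lay 549 bp upstream of its start and had 22.4 after TNFα and 7.03 after TWEAK. An intronic site of PDE4B, a cAMP phosphodiesterase, had 22.05 and 9.11. The other 5 lay nearest NDUFV2, TCIM, VXN, MLF1 and MORC1, with 22.1 to 24.1 after TNFα and 6.18 to 8.74 after TWEAK. Thus 2 of the 10 were promoters, and all 10 were also called at 6 h of TNFα.

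TNFα only sites reached nearly the same strength. The strongest, 19222 bp upstream of MOBP, had a TNFα fold of 23.6. It was followed by an exonic site of CYP2F1, a cytochrome P450 gene, with 23.3, by the promoter of SLC9A8, a sodium/proton exchanger, with 22.8 at 69 bp upstream of its start, and by a site nearest SPINK6, a protease inhibitor gene, with 22.7. The remaining 6 were nearest EMC2, HPSE2, WIPI1, CCDC124, TRIM25 and UBE2E1, with folds from 20.0 to 22.4. The site near TRIM25, a ubiquitin ligase of antiviral signalling, lay 1789 bp upstream of its start. All 10 carried H3K27ac at 30 min of TNFα and were called at 6 h of TNFα, and 4 of the 10 held a κB motif in the 200 bp around the summit, as did 4 of the 10 strongest sites of both ligands.

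The κB motif separated the groups most among the motifs searched. It was counted in the 200 bp around the summit on both strands. It was found at 251 of 335 sites of both ligands or 74.9% and at 44.1% of the TNFα only sites, a difference of 30.8 percentage points (Newcombe 95% interval 25.8 to 35.3) that had the same sign on 22 of 23 chromosomes. In windows of the same length 1000 bp to either side the shares were 3.43% and 2.65%, and in the 200 bp before the start of 34961 RefSeq promoters the share was 4.22%. None of the 20 TWEAK only sites held it, which allows a share of up to 16.8% (exact interval). More than 1 match was found at 23.9% of the sites of both ligands and at 11.8% of the TNFα only sites. Overlapping matches count separately here, so 1 stretch GGGAAATTCCC, as at CXCL2, gives 2 matches. These shares are therefore not shares of sites with separate κB elements. Where a match was present, it was centred a median of 12 bp from the summit at the former and 16 bp at the latter.

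Among κB sequences, the most frequent were GGGAAATTCC, at 9.25% of the sites of both ligands and 6.30% of the TNFα only sites, and GGGAATTTCC, at 9.25% and 5.79%. A stretch GGGAAATTCCC counts toward both. GGGGAATTCC was found at 8.06% and 3.99%, GGGACTTTCC at 8.36% and 3.35%, and GGGAATCCCC at 6.57% and 1.78%. GGGAAATCCC, at 2.39% and 3.01%, had the lower share at sites of both ligands. These 6 were picked after their shares were seen.

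The other words, also counted on both strands, were less unequal. The AP-1 word TGACTCA was present at 14.0% of the sites of both ligands and 14.4% of the TNFα only sites, a difference of −0.37 percentage points (−3.78 to 3.83), with 2.84% and 3.45% in the flanking windows. With the sites in vehicle lists kept, the AP-1 difference outside tandem repeats was 5.72 points (2.69 to 9.07), so its size depended on leaving them out. The SP word GGGGCGG was present at 17.6% and 10.7%, a difference of 6.95 points (3.18 to 11.4). Differences for the TEAD word GGAATGT, at 7.46% and 5.10%, the RUNX word TGTGGTT, at 4.18% and 4.47%, the ETS word CCGGAAG, at 3.28% and 3.39%, and the FOX word TGTTTAC, at 4.78% and 4.97%, had intervals that included 0. Of the RefSeq promoters, 3.52% held the AP-1 word, 27.2% the SP word, 2.43% the TEAD word, 2.85% the RUNX word, 7.72% the ETS word and 2.31% the FOX word. The κB motif can share bases with the ETS and SP words, and no match was removed for that. A match is a string of letters and was not tested for binding.

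**Figure D3:**
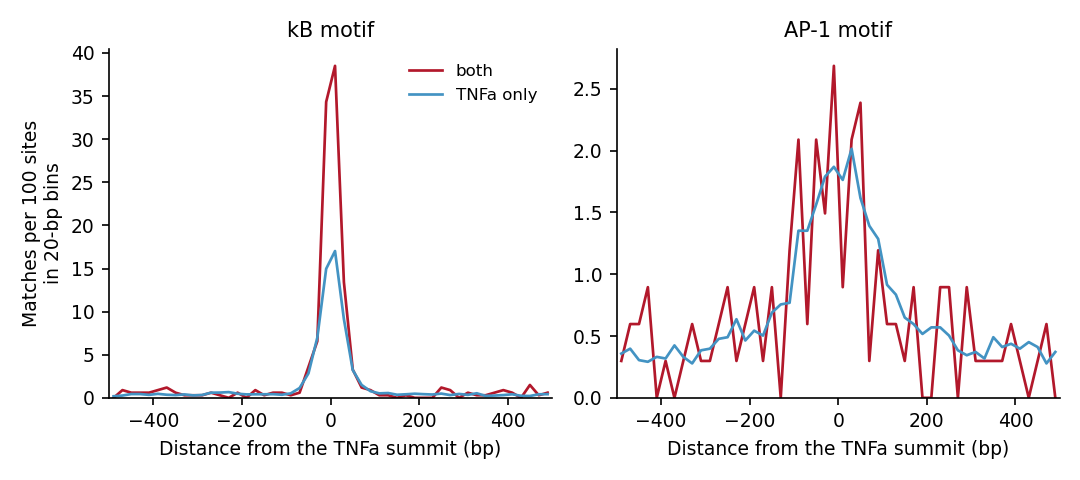
Matches per 100 sites in bins of 20 bp (y axis) against the distance from the TNFα summit (x axis, bp) for the κB motif (left) and the AP-1 word (right), at 335 sites of both ligands (red) and 7542 TNFα only sites (blue) outside tandem repeats. The κB peak at the summit is higher for the sites of both ligands, while the AP-1 curves overlap. The y axes differ in scale, and overlapping matches count separately.

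FOSL1 and H3K27ac of vehicle-treated cells were more frequent at the sites of both ligands. A FOSL1 peak overlapped 74.9% of them and 45.7% of the TNFα only sites, a difference of 29.2 points (24.2 to 33.7) with the same sign on all 23 chromosomes. Since the regions of both ligands are longer, the overlap was also counted in the 200 bp around each summit, which gave 72.8% and 45.2%. A vehicle H3K27ac peak lay within 500 bp of the summit at 85.1% and 61.2%, a difference of 23.9 points (19.6 to 27.5) with the same sign on 21 of 23 chromosomes. Both marks were present at 68.1% and 42.4%, and neither at 8.06% and 35.5%. Where a FOSL1 peak was called, its own fold was similar, with medians of 6.23 and 5.84, and the same held for vehicle H3K27ac, with 3.39 and 3.29. Gene starts were also nearer, since 33.1% of the summits of both ligands and 21.9% of the TNFα only summits lay within 1000 bp of a protein-coding start, a difference of 11.3 points (6.35 to 16.6). Introns held 29.3% and 36.7%, intergenic sequence 36.7% and 39.4%, and exons 0.896% and 2.08%.

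Among TNFα only sites themselves, κB and FOSL1 varied with strength in different ways. The κB share was 19.1% in decile 1, 46.4% in decile 5, 57.0% in decile 9 and 51.5% in decile 10. FOSL1 overlapped 67.8% of these sites in decile 1, 36.4% in decile 6 and 52.2% in decile 10. The weakest TNFα only sites therefore had the lowest κB share and the highest FOSL1 share of all deciles.

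The features of the sites of both ligands were not matched by TNFα only sites of the same strength. With the TNFα only sites weighted to the distribution of the sites of both ligands over the deciles of TNFα fold, their shares were 52.2% for κB, 50.7% for FOSL1, 66.1% for vehicle H3K27ac, 21.6% for gene starts and 16.1% for the AP-1 word. The sites of both ligands exceeded these by 22.7, 24.2, 19.0 and 11.5 points for the first 4, and the difference was −2.10 points for the AP-1 word. Because decile 10 is wide, it was split further into 5 parts of about 168 sites.

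**Figure D4:**
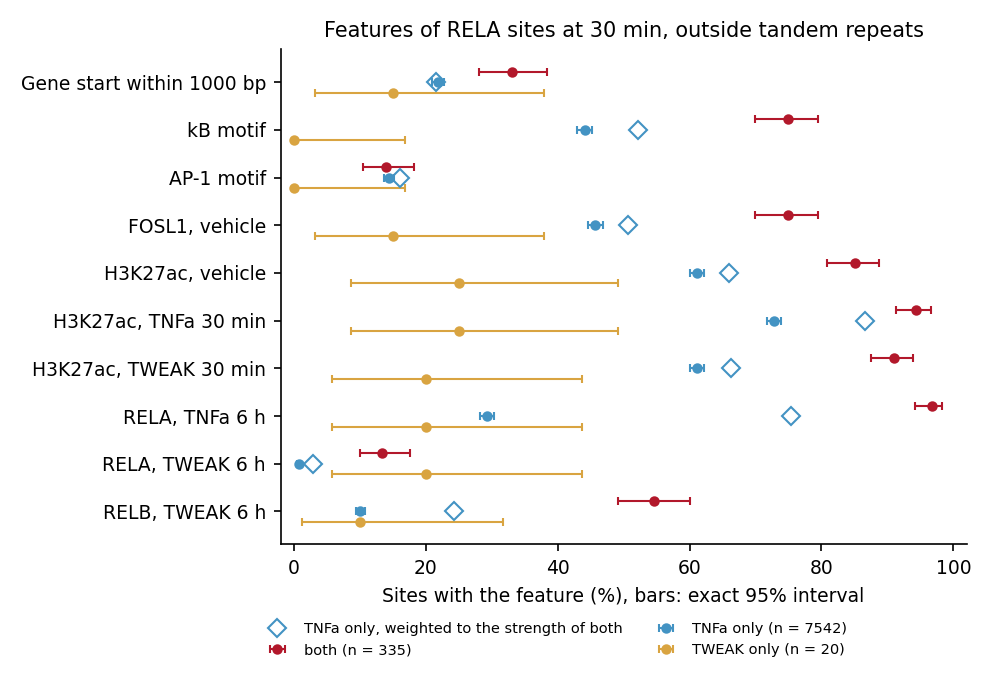
Share of sites with each feature (x axis, percent) outside tandem repeats for the sites of both ligands (red), TNFα only (blue) and TWEAK only (yellow), with exact 95% intervals. Open diamonds show TNFα only sites weighted to the strength of the sites of both ligands. The red points lie right of the diamonds for every feature drawn except the AP-1 word.

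In each of those 5 parts, a TNFα site was called after TWEAK more often with a κB motif than without. In the weakest part, with folds from 11.4 to 12.1, the shares were 21.7% (13.8 to 31.6) with the motif and 11.8% (5.56 to 21.3) without. In the strongest, from a fold of 16.3, they were 70.8% (60.7 to 79.7) and 38.9% (27.6 to 51.1). With a FOSL1 peak the shares ran from 23.5% to 64.3%, and without it from 7.58% to 42.9%. For vehicle H3K27ac they ran from 22.1% to 61.0% with and from 4.35% to 46.7% without. The intervals overlapped in some parts for each feature. Over decile 10 as a whole, a site with κB, FOSL1 and H3K27ac together was called after TWEAK in 127 of 222 cases or 57.2% (50.4 to 63.8). A site with none of the 3 was called in 2 of 55 cases or 3.64% (0.443 to 12.5). With κB alone the share was 18.6% (12.1 to 26.9), and with FOSL1 and H3K27ac but no κB it was 24.3% (18.8 to 30.6). The median TNFα fold in these classes was 13.8, 13.002, 13.2 and 13.7.

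**Figure D5:**
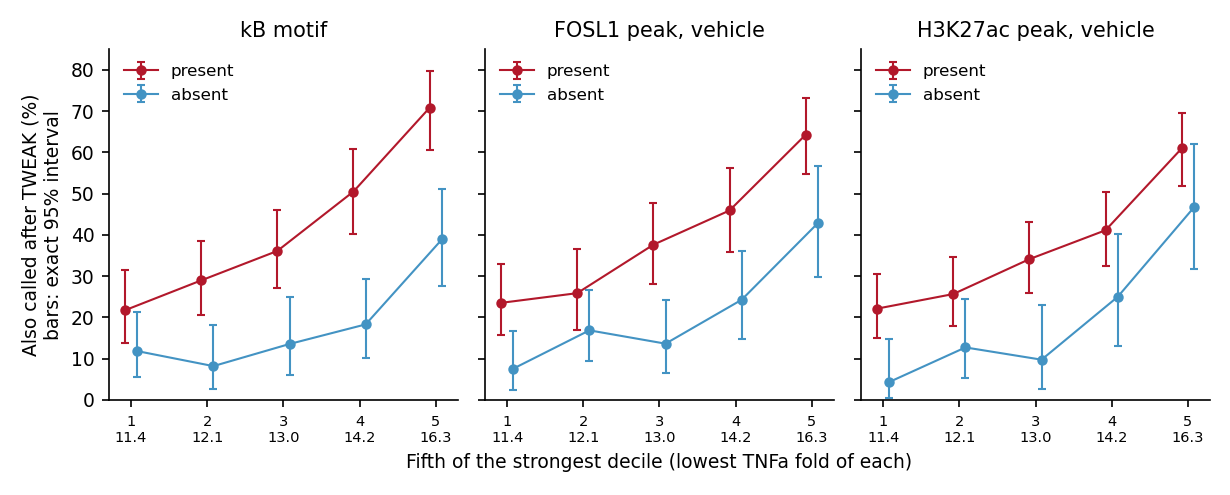
Share of TNFα sites of decile 10 that were also called after TWEAK (y axis, percent, with exact 95% intervals) in 5 parts of rising TNFα fold (x axis, with the lowest fold of each). Panels split the sites by the κB motif, the FOSL1 peak and the vehicle H3K27ac peak. The red points (feature present) lie above the blue ones (absent) in all 5 parts of each panel.

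New H3K27ac after TWEAK was more frequent at the sites of both ligands than at TNFα only sites. Of the 335 sites of both ligands, 50 had no vehicle H3K27ac peak. After 30 min of TNFα 33 of them or 66.0% (51.2 to 78.8) had a peak, and after 30 min of TWEAK 23 or 46.0% (31.8 to 60.7). Of 2930 TNFα only sites without a vehicle peak, 32.5% (30.8 to 34.2) had one at 30 min of TNFα and 7.58% (6.64 to 8.60) at 30 min of TWEAK. The contrast after TWEAK was also present among sites of high fold. In decile 10, the share with a new peak after TNFα was 71.1% (55.7 to 83.6) at sites of both ligands and 66.1% (58.8 to 72.9) at TNFα only sites, with overlapping intervals. After TWEAK it was 48.9% (33.7 to 64.2) and 11.8% (7.56 to 17.4). At 6 h of TWEAK, 18 of 45 sites (25.7 to 55.7%) and 25 of 186 (8.89 to 19.2%) of decile 10 had one. Peaks were also lost, and at all TNFα only sites the 30 min TWEAK list had 222 new peaks and 225 lost, against 951 and 70 for the 30 min TNFα list.

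The later NF-κB lists also separated the groups. At 6 h of TNFα, RELA was called at 324 of 335 sites of both ligands or 96.7% and at 29.2% of the TNFα only sites, and in decile 10 at 98.5% (96.2 to 99.6) and 80.5% (77.0 to 83.7). Where it was called, its median fold was 9.86 and 6.29. RELB at 6 h of TWEAK was called at 54.6% (49.13 to 60.05) of the sites of both ligands and 10.1% (9.42 to 10.8) of the TNFα only sites, and in decile 10 at 58.1% (52.0 to 64.1) and 25.8% (22.3 to 29.6). At 30 min of TWEAK RELB was called at 0 of the 335 sites, an upper limit of 1.10%, and at 3 of the 7542. Sites in the RELB vehicle list had been left out beforehand, so sites with RELB before treatment could not add to these counts. The counts therefore do not describe early RELB binding in general. RELA at 6 h of TWEAK was called at 45 sites of both ligands or 13.4% and at 54 TNFα only sites or 0.716%. So 290 of the sites at which TWEAK gave a RELA call at 30 min had none at 6 h of TWEAK. Of the 45, 37 were called in the RELA list of 6 h TNFα and in the RELB list of 6 h TWEAK as well. The different beads used for RELA and RELB and the unknown depth of each list limit comparisons of levels between lists.

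No κB motif and no AP-1 word was found at any of the 186 TWEAK only sites, an upper limit of 1.96% for each, and 17.7% had a vehicle H3K27ac peak, against 58.5% of all TNFα only sites. They were also lower in the H3K27ac lists after either ligand, with shares from 17.7% to 30.1% against 58.8% to 70.2%. In FOSL1 and the later lists named next, they stood close to or above the TNFα only sites with repeats included. With tandem repeats included on both sides, FOSL1 overlapped 46.8% (39.4 to 54.2) of them and 45.8% of the TNFα only sites, and RELA at 6 h of TNFα was called at 28.0% (21.6 to 35.0) and 28.8%. RELB at 6 h of TWEAK was called at 14.0% (9.34 to 19.8) and 9.91%, and RELA at 6 h of TWEAK at 21.0% (15.4 to 27.5) and 1.61%. How far tandem repeats, in which most of them lay, contribute to these calls was not tested. Their median TWEAK fold was 4.84, and the 166 of them in tandem repeats were far from genes, so that the median distance of all 186 to a protein-coding start was 1497229 bp. Of the 20 outside tandem repeats, with folds from 2.93 to 7.51, 3 overlapped a FOSL1 peak and 5 had a vehicle H3K27ac peak. There the FOSL1 share was 15.0% (3.21 to 37.9) against 45.7% of the TNFα only sites. RELA at 6 h of TNFα was called at 20.0% (5.73 to 43.7) against 29.2%. RELB at 6 h of TWEAK was called at 10.0% (1.23 to 31.7) against 10.1%, and RELA at 6 h of TWEAK at 20.0% (5.73 to 43.7) against 0.716%. With 20 sites all these intervals are wide. A TNFα region that shared no base with the site lay within 1000 bp of 4 of them, at a gap of 4 bp next to the start of WDR89. The 10 strongest were nearest DEFB115, ANKRD30BL, PLPP4, ALG10B, SENP5, WDSUB1, WDR89, SCX, TEDC1 and TAF11L13, of which WDR89, TEDC1 and TAF11L13 had the summit within 1000 bp of their start.

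For each of 19962 protein-coding genes, sites whose summit lay within 50 kb of a start were counted, tandem repeats included. A site of both ligands was near 2.98% of all genes, a TNFα only site near 38.5% and a TWEAK only site near 0.215%. Of 117 genes on 11 lists of NF-κB biology, 23 or 19.7% (12.9 to 28.0) had a site of both ligands and 76 had TNFα only sites alone, which 36.7% of all genes had. Of the 99 with any TNFα site, 23.2% (15.3 to 32.8) had a site of both ligands, against 7.52% over all genes with any TNFα site. The lists were chosen with earlier results of these data known, so these shares describe the lists and are not an independent comparison with all genes. Of 17 ribosomal protein genes taken for comparison, 0 had a site of both ligands, and the upper limit of 19.5% includes the 2.98% of all genes. TNFα only sites lay near 13 of the 17. Any TNFα site was near 76.5% (50.1 to 93.2) of them, 84.6% (76.8 to 90.6) of the 117 listed genes and 39.7% of all genes. A nearby TNFα site thus did not set the listed genes apart from the ribosomal ones. Neighbouring genes share sites, and a site near a gene was not tested for an effect on it.

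Chemokine genes, whose products recruit leukocytes, had the largest share of members with a site of both ligands among these lists. It was 5 of 13 or 38.5% (13.9 to 68.4), and all 13 had a TNFα only site. The interval overlapped those of the cytokines (9.09 to 61.4%) and of adhesion, matrix and migration (11.0 to 58.7%), so the rank is not secure. Besides CXCL8, CXCL2 had a site 74 bp from its start with a fold of 17.6 after TNFα and 8.09 after TWEAK. CXCL5 had one 80 bp from its start with 16.6 and 6.69, which also lay 39932 bp from CXCL3. CCL28 had 13.8 and 8.50 at 5455 bp. The promoter sites of their relatives CXCL1, 89 bp from the start with a TNFα fold of 17.3, and CXCL10, at 134 bp with 14.2, were called after TNFα only, as was that of CCL20 at 58 bp with 15.0. CCL2 had a TNFα only site with 15.6 at 2601 bp. CXCL10, CCL20, NFKBIA and the listed genes named as having no site were named after their values were seen. The CXCL1 promoter was thus called after TNFα only at a fold between those of CXCL2 and CXCL5.

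The windows at the starts of listed genes are shown for these chemokines, B2M, TNIP3 and IFNGR2, because they place κB sequences of sites of both ligands beside those of TNFα only sites. They were chosen after values were seen and are the 4 strongest of each group by TNFα fold within 1000 bp of a listed start and outside UTRs, with CXCL8 shown above. The sites of both ligands are at chr4:74099219-74099319 (CXCL2), chr4:73998707-73998807 (CXCL5) and chr15:44711371-44711471 (B2M), and the TNFα only sites at chr4:73869254-73869354 (CXCL1), chr4:121164331-121164431 (TNIP3), chr4:76023581-76023681 (CXCL10) and chr21:33403248-33403348 (IFNGR2).
CXCL2, both: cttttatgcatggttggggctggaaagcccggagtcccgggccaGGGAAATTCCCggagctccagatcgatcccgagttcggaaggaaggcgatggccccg
CXCL5, both: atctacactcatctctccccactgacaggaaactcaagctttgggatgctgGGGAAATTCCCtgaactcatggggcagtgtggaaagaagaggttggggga
B2M, both: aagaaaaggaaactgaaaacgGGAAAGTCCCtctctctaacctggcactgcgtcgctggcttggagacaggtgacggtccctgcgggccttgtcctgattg
CXCL1, TNFα only: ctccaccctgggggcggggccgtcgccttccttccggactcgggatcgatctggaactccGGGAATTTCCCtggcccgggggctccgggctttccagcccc
TNIP3, TNFα only: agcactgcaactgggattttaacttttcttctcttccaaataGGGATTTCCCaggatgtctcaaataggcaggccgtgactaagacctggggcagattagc
CXCL10, TNFα only: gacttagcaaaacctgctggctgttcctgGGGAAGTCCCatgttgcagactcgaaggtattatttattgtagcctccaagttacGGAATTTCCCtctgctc
IFNGR2, TNFα only: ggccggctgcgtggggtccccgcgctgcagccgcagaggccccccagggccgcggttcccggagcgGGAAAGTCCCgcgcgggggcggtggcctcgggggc

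All 7 of these windows hold a κB motif. The CXCL8 window, which belongs to the same set and to the sites of both ligands, holds no match to this strict motif. Its stretch GGAATTTCCT departs from the motif only in the last base, so a missing match is not a missing κB element. A match to the motif alone thus did not divide the groups here. The B2M and IFNGR2 windows hold the same 10 bases, and B2M was called after both ligands while this IFNGR2 site, at its start and other than its strongest site 20165 bp away, was called after TNFα only.

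Of 13 cytokine genes, 4 had a site of both ligands. CSF1, the macrophage colony-stimulating factor, had one 17524 bp from its start with a fold of 18.7 after TNFα and 11.1 after TWEAK. IL32 had one at its start with 17.6 and 8.06, and IL1A and IL1B shared one with 12.4 and 6.54. A site 2815 bp from TNF, shared with LTA and LTB, was called after TNFα only with 8.46, and IL23A had a TNFα only site with 11.4. IL6 had neither kind of site within 50 kb.

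Among feedback regulators, TNFAIP3, which encodes the ubiquitin-editing inhibitor A20, had a site of both ligands at 5946 bp with a fold of 15.9 after TNFα and 7.32 after TWEAK. NFKBIZ, an atypical IκB, had one 205 bp from its start with 18.9 and 6.66. They were the only members of their lists with such a site within 50 kb among the sites kept. TNIP3, with a TNFα fold of 14.7 at 60 bp, TNIP2, with 11.95, NFKBID, with 11.3 at 588 bp, ZC3H12A, an RNase that degrades inflammatory transcripts, with 9.43, and BCL3, with 8.52, had TNFα only sites as their strongest. NFKBIA, which encodes IκBα, had TNFα only sites of at most 6.11, but 2 further sites within 50 kb lay in a vehicle list and were left out. The same rule left out at least 1 site outside tandem repeats within 50 kb of 32 of the 117 listed genes, among them RELA, NFKB1, NFKB2, RELB, REL, NFKBIZ, BCL3, TNFAIP3, TNIP1 and ZC3H12A, so counts and strongest sites do not cover those already called in vehicle. Of the NF-κB subunits, RELA had a site of both ligands within 50 kb, with 13.1 and 6.21 at 6829 bp, while NFKB1 and NFKB2 had TNFα only sites within that distance with up to 9.63 and 5.23. NFKB1 was also the nearest gene of a site of both ligands farther away, with 17.5 after TNFα and 8.54 after TWEAK, which was looked up after its values were seen.

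Of 15 adaptors and kinases, 3 had a site of both ligands. MAP3K8, a kinase upstream of ERK, had one 27 bp from its start with 17.2 after TNFα and 6.36 after TWEAK, TRAF4 had 15.8 and 7.96, and TRAF2 had 13.1 and 6.33 at 777 bp. IKBKG, which encodes NEMO, had a TNFα only site with 17.0 and RIPK2 one with 15.0. MAP3K14, which encodes the noncanonical kinase NIK, had no site within 50 kb, and neither had CHUK, RIPK1 or TRAF6. Of 9 receptor genes, TNFRSF12A, which encodes Fn14, was the only one with a site of both ligands, and that was the IL32 site 44943 bp away. TNFRSF1A, with a TNFα fold of 13.2, TNFRSF9, with 10.1 at 64 bp, LTBR, with 8.66, and TNFRSF10B, with 8.17, had TNFα only sites.

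None of 8 regulators of cell survival and apoptosis had a site of both ligands, an upper limit of 36.9%, beside 2.98% of all genes. Of all genes, 38.5% had a TNFα only site, and of these 8 genes 7 had such sites. The strongest of these were near BID, with a fold of 18.0, and near CFLAR, which encodes the caspase 8 inhibitor c-FLIP, with 10.8, followed by MCL1 with 7.02 and BCL2L1 with 6.25. Of 10 AP-1 genes, FOSL1 had a site of both ligands 26653 bp away with 18.5 and 8.66, and FOSB, with 14.6, JUNB, with 10.2, and MAFF, with 6.43, had TNFα only sites as their strongest.

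Genes of adhesion, matrix and migration had 5 of 16 members with a site of both ligands. The strongest, 5123 bp from PLAUR, the urokinase receptor gene, had a TNFα fold of 22.7 and a TWEAK fold of 12.96 but lay in a tandem repeat. MMP1, MMP3 and MMP10, collagenase and stromelysin genes of 1 cluster, shared a site 3575 bp from the start of MMP1 with 11.4 and 7.25, and MMP14 had one with 7.37 and 5.38. EFNA1, an ephrin gene, with 18.9, PLAU, which encodes urokinase, with 15.2 at 78 bp, and EPHA2, with 13.04, had TNFα only sites. Of 15 genes of antigen presentation and interferon signalling, B2M, the light chain of MHC class I, was alone in having a site of both ligands, 92 bp from its start with 15.2 and 7.32. IFNGR2, with 17.7 at 20165 bp, IRF2, with 10.2 at 15 bp, and IRF1, with 9.30, had TNFα only sites, and the 5 HLA genes had no site.

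The study's RNA-seq of other samples, taken hours after treatment rather than at 30 min, gave a list of TNFα-specific genes and a list headed as common genes. The second holds 626 symbols and, by the study's figure legend, joins the common genes with the TWEAK-specific ones. These were not separated here, so it is not a list of genes shared by the ligands alone. Of 263 protein-coding genes matched on the first, 30 or 11.4% (7.83 to 15.9) had a site of both ligands within 50 kb, and of 492 matched on the second 28 or 5.69% (3.81 to 8.12), against 2.98% of all genes. The first exceeded the second by 5.72 points (1.63 to 10.5). Any TNFα site was near 74.5% and 54.7%, against 39.7% of all genes. Among genes with any TNFα site, the share with a site of both ligands was 15.3% and 10.4%, and the interval of their difference, −1.18 to 11.4 points, included 0. Over all matched genes, the share near a site of both ligands was lower on the list headed as common than on the TNFα-specific list. Among genes with any TNFα site the lists were not separated.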

How the data were processed

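ChIP-seq peak lists of L3.6pl cells (48 samples, 16 conditions, 3 replicates each) were used as deposited. Per the submitters' notes and the study's methods, paired-end reads were mapped to hg38 with Bowtie2 2.5.0, handled with SAMtools 1.18 and deepTools 3.3.2, and peaks were called with MACS2 (version not given in the sources used here) against input without a shifting model, narrow for RELA, RELB and FOSL1 and broad for H3K27ac. The fold enrichment is the authors' ratio of ChIP over input, and the deposited −log10 q is the authors' significance. Deposited −log10 p and score columns were not used. Read depth is unknown.

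The members and gene lists were chosen with earlier results of these data known. Overlaps, motifs and distances were computed in scipy 1.17.1, pandas 2.3.3, pysam 0.24.0 and numpy 2.4.6 (Python 3.11.15) on hg38 and GENCODE 44, and region counts were checked with bedtools 2.31.1. Functions were tested on simulated data. Shares carry Clopper-Pearson and differences Newcombe 95% intervals. Regions are not replicates, so no p-value is given. Named sites are, outside tandem repeats, the 10 strongest of each group by fold, and, of each gene list, up to 4 members with the strongest site of each kind within 50 kb, and some members that this rule names are not reported here. Windows shown were limited to sequence outside UTRs, and those at starts of listed genes were added after values were seen. Alternatives covered overlap, q, vehicle regions, repeats, windows, weighting and gene distance.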

Additional observations from a re-analysis of the deposited data

How the results depend on the processing

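No paired analysis was possible because each condition is 1 pooled list, and no replicate was left out for the same reason. The values here are for all 8687 sites unless stated. Of 85 alternatives to 12 results, 54 counted as unchanged, 29 moved and 2 reversed. Unchanged meant within the interval of the result, except for the shares of genes, where a set ratio between the values was allowed. Of these alternatives, 64 were planned, and the relaxed κB motif, FOSL1 in 200 bp, the 50 bands and vehicle regions kept outside repeats were chosen after seeing the data. A q of at most 0.001, an overlap of 50% and other promoter and motif windows moved none. With vehicle regions kept, the κB difference between sites of both ligands and TNFα only sites reversed from 26.1 to −17.6 points and the promoter difference from 9.24 to −10.6. TWEAK sites also called after TNFα then came to 82.2%, TNFα sites also called after TWEAK to 20.1%, the ratio of median TNFα folds to 1.23, and the differences to −6.64 (AP-1), 42.5 (FOSL1), 15.3 (H3K27ac) and 67.1 (RELB at 6 h of TWEAK), with 5.91% of genes near a site of both ligands. Of the sites left out because of vehicle, 85.5% lay in tandem repeats. With vehicle regions kept but repeats removed, the κB difference was 26.5 and the promoter difference 6.34, 95.1% of TWEAK and 7.79% of TNFα sites were shared, the ratio of folds was 2.43, the differences were 5.72 (AP-1, 2.69 to 9.07), 34.3 (FOSL1), 67.6 (RELA at 6 h of TNFα) and 60.01 (RELB), and 5.42% of genes were near a site of both ligands. The AP-1 difference was −0.71 with vehicle regions left out, and the cause of its change was not tested. Removing repeats alone gave 94.4% of TWEAK sites, a κB difference of 30.8 and a RELA 6 h difference of 67.5. Weighting by deciles of fold gave 17.7 (κB), 24.4 (FOSL1), 13.3 (H3K27ac), 23.5 (RELA 6 h) and 28.9 (RELB), and 50 bands outside repeats gave 23.7 (FOSL1), 18.4 (RELA 6 h) and 32.5 (RELB). At a gene distance of 10 kb, 1.09% of genes had a site of both ligands and 17.2% a TNFα only site. Unknown depth limits every absent call.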

Other observations

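Few genes were the nearest to more than 1 site of both ligands. Outside tandem repeats the 335 sites had 321 nearest genes, and 13 genes had 2 or more. ZFP36L2, which encodes an RNA-binding protein that promotes mRNA decay, had 3 such sites and 8 TNFα only sites. A TNFα only site lay within 50 kb of 53.4% (47.9 to 58.9) of the sites of both ligands and of 45.0% of the other TNFα only sites. Of the 321 nearest genes, 157 or 48.9% were also nearest to a TNFα only site, which is 3.17% of the 4957 nearest genes of that group.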
